A study of Mus musculus with 6 samples.

Results

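Voltage-gated calcium channels of mouse brain cultures were examined through 10 subunit genes, of which Cacna2d2 was the gene that had drawn attention to the family. The 10 names were Cacna2d1, Cacna2d2, Cacna2d3, Cacna1a, Cacna1b, Cacna1c, Cacna1d, Cacna1e, Cacnb3 and Cacnb4. Of them 9 were named by a row of the array annotation with exactly 1 gene symbol, out of 19938 genes so named, and Cacnb3 is not analysed here. Of several rows of a gene, which among the 9 concerned Cacna2d1, the row with the highest mean over all arrays was taken. Cacna2d2 was selected because its values in treated and control cultures of these same arrays differed, so its difference is a description and not a test. The other names were listed with results of the same comparison known.

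The study compared 2 groups of primary cultures from the brains of OF1 mouse embryos at embryonic day 17, differentiated in fetal calf serum into a mixture of neurons and glia and then kept in serum-free medium without growth factors. The control group received vehicle. The other group received 1,25-dihydroxyvitamin D3 (1,25D), the hormonally active form of vitamin D, at 10 nM. Each group held 3 arrays of total RNA, called biological replicates in the labels, and no label says whether they came from separate litters or whether equal replicate numbers mark a shared culture. If they do not come from separate cultures, the errors given here measure technical spread. How long the cultures were treated was not stated.

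Voltage-gated calcium channels open when the membrane is depolarised and let calcium into the cell. A pore-forming alpha1 subunit (Cacna1 genes) carries the voltage sensor and the pore, an intracellular beta subunit (Cacnb genes) binds to it and helps bring it to the membrane, and an extracellular alpha2delta subunit (Cacna2d genes) promotes trafficking and surface expression. In neurons the channels trigger transmitter release at terminals and couple activity to gene expression in the cell body. Gabapentin and pregabalin bind the alpha2delta proteins of Cacna2d1 and Cacna2d2, and loss of Cacna2d2 in the ducky mouse causes ataxia and absence epilepsy.

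1,25D acts through a nuclear receptor that binds DNA, so the DNA just before the start of the alpha2delta genes is shown, since Cacna2d2 differed from its relatives among these genes. Each sequence holds the 250 bases before the RefSeq start in GRCm38.p6, 5′ to 3′ on the strand of the gene, with CG dinucleotides in capitals. The arrays do not measure these sequences.
Cacna2d2, chr9:107399630-107399879, plus strand: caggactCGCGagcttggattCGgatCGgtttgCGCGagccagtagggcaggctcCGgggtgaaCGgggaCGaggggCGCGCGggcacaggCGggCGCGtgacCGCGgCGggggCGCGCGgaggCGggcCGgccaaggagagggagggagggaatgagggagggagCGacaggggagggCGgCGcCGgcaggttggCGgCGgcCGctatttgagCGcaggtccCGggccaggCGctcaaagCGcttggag
Cacna2d1, chr5:15934441-15934690, plus strand: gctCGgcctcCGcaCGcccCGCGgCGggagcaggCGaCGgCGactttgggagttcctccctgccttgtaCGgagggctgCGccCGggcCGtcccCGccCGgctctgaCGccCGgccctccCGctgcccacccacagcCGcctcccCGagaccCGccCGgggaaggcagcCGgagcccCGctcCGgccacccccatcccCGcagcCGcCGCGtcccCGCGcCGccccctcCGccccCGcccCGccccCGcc
Cacna2d3, chr14:29721865-29722114, minus strand: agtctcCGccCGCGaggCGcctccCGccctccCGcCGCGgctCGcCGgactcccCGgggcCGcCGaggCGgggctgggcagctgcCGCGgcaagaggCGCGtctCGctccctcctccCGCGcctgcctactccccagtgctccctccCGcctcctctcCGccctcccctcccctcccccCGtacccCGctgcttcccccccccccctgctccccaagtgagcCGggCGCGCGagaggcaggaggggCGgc

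All 3 windows were rich in G and C. The G and C share was 74.4% for Cacna2d2, 82.4% for Cacna2d1 and 80.0% for Cacna2d3, against a median of 52.4% over 32851 windows of the same length from 27025 genes. They held 34, 36 and 30 CG dinucleotides, and the share of all windows with at least as many was 3.53%, 2.58% and 5.94%. Hexamers of the kind bound by this receptor class were searched on both strands with the letters AGGTCA (held by 14.0% of all windows), with GGGTCA (held by 11.6%), with AGTTCA (held by 11.8%) and with GGTTCA (held by 8.85%). None was found in the 3 windows, whereas 38.6% of all windows held at least 1 of them. Of the 10 names 9 had windows, 15 in all, and 4 of the 15 held a hexamer (1 each of Cacna1e, Cacnb4, Cacna1c and Cacna1d). None held the paired element of this receptor, known as DR3, which was found in 13 of all windows (0.0396%). The absence of these letters says nothing about binding elsewhere in the gene.

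The arrays were evenly scaled, with a median intensity over genes between 240.4 and 252.9. All 9 measured genes lay above the lower quartile of genes on each of the 6 arrays (6.69 to 6.86 on the log2 scale). Arrays with equal replicate numbers resembled each other, so differences are also given per replicate number, as 1,25D minus control, and called pair 1, 2 and 3. Of the 19938 genes 1094 had exactly the same value in control and treated replicate 1, and 0 of the measured members were among them. The markers Nefl and Stmn2 (neuron), Neurod2 and Tbr1 (glutamatergic neuron) and Cdh5 (endothelium) were among them. So were Rem2, Scn1a and Scn2b. What these equal values contribute to the likeness of the arrays and to the pair 1 medians of the lists was not tested. Levels below are log2 intensities of a probe set and are not compared between genes. Markers of neurons and glia had values on all arrays. Control means reached from 5.91 (Nefm) to 10.94 (Map2) over the 12 neuron markers. Over the 9 astrocyte markers they reached from 7.83 to 13.08, with Gfap at 11.61. Nefm lay below the lower quartile of genes. The summed intensity of the 12 neuron markers was 3954, 5346 and 5609 in control replicates 1, 2 and 3 and 3280, 4629 and 5675 in the treated ones. It was lowest in replicate 1 of both groups, and the ranges of the groups overlapped. In these bulk samples fewer cells of a type and less RNA per cell cannot be told apart.

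Cacna2d2, the alpha2delta-2 subunit, was about 2-fold higher in the treated cultures. Its log2 intensity was 7.96, 7.99 and 7.63 in control replicates 1, 2 and 3. In the treated replicates it was 8.95, 9.16 and 8.74. Every treated array lay above every control array, and 0.76 separated the lowest treated from the highest control value. The means were 7.86 ± 0.20 and 8.95 ± 0.21 (SD, n = 3 each), a 2.13-fold difference, with a log2 difference of 1.09 ± 0.15 (SE). The 95% interval from limma, without the replicate number as a block, reached from 0.75 to 1.43.

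The difference of Cacna2d2 was nearly the same in the 3 pairs. It was 0.99 in pair 1, 1.18 in pair 2 and 1.11 in pair 3, or 1.98-fold, 2.26-fold and 2.16-fold. The span of these differences was 0.19, where the median span over all genes was 0.26 and 68.5% of genes had a span at least as large. Nothing is read from this, since the gene was selected by a blocked fit, whose p falls when the pairs agree. Replicate 3 was the lowest array in both groups. Taking the replicate number as a block therefore reduced the SE to 0.08 and narrowed the interval to 0.90 to 1.28. In limma the gene had an adjusted p of 0.14, and of 0.024 once the block was added, and this second value led to the selection of the gene. Only 18 genes had a larger rise in the mean. With the block and without replicate 2, the adjusted p was 0.45 and the log2 difference 1.05.

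Without the block 0 of the 9 genes passed an adjusted p of 0.05, where 0.0251% of all genes did (5 genes). With the block 1 of the 9 passed, Cacna2d2, where 0.0903% of all genes did (18 genes). Since Cacna2d2 was chosen on this comparison, nothing is read from these counts. At an unadjusted limma p under 0.05 the count was 1 of 9 in both fits, again Cacna2d2. Of all 19938 genes 295 had such a p without the block and 1152 with it.

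**Figure D1:**
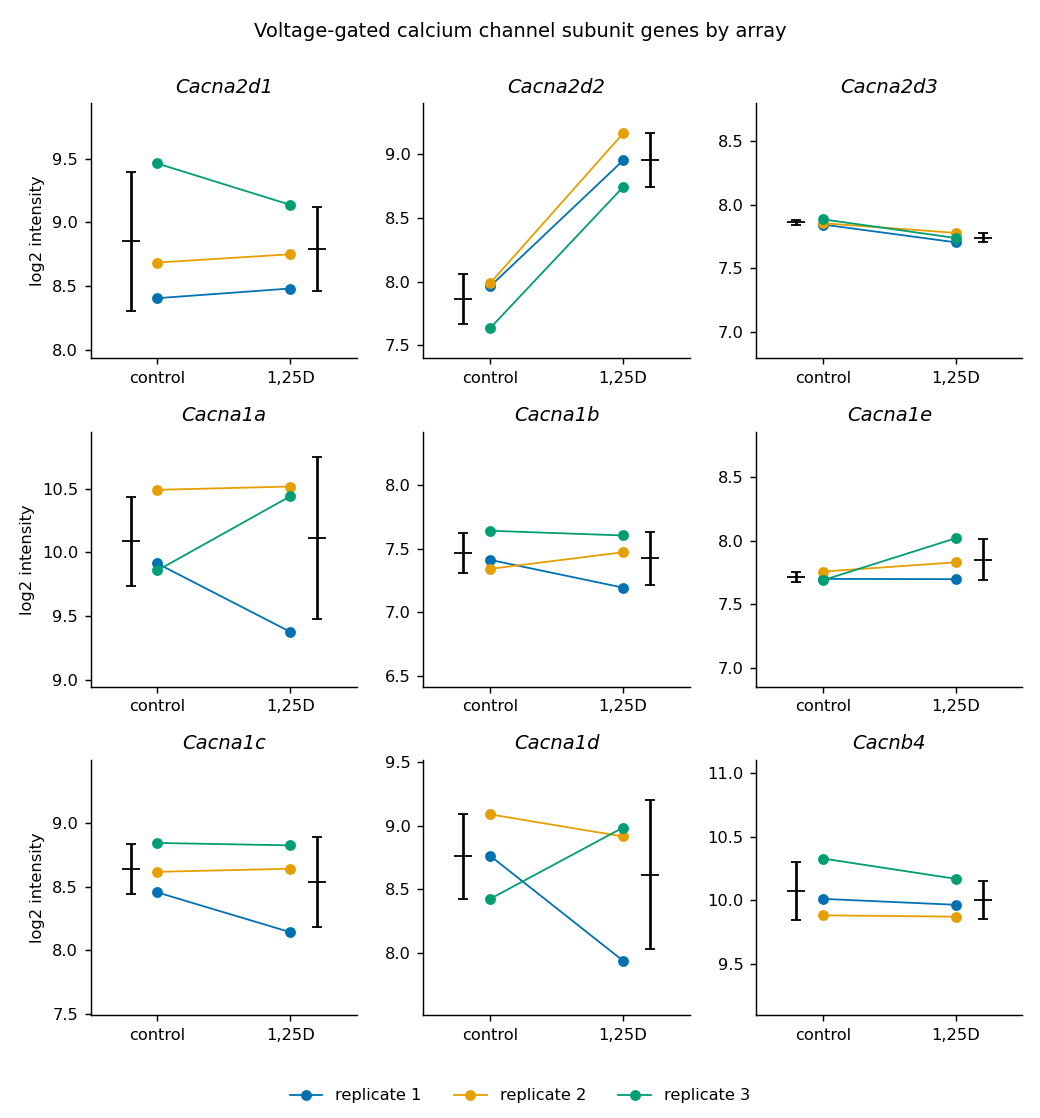
Log2 intensity of the 9 measured subunit genes on each array, control on the left and 1,25D on the right of each panel, with lines joining equal replicate numbers and black bars giving mean and SD (n = 3); every panel spans 2 log2 units. For Cacna2d2 all 3 treated arrays (8.74 to 9.16) sit above all controls (7.63 to 7.99), while lines of Cacna1a and Cacna1d run in opposite directions for replicates 1 and 3.

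Cacna2d3, the alpha2delta-3 subunit, had slightly lower values in the treated arrays. They were 7.84, 7.85 and 7.89 in the controls and 7.70, 7.78 and 7.74 in the treated replicates 1, 2 and 3. The groups did not overlap, but 0.07 separated the lowest control from the highest treated value. The log2 difference was -0.12 ± 0.09 (SE), with an interval from -0.32 to 0.08, and it was -0.14, -0.08 and -0.15 in the pairs. All treated arrays lay below all controls for 1.52% of genes, and all above for 2.63%. The spread of Cacna2d3 within the controls was small, an SD of 0.02 against a median of 0.15 over all genes, and the interval, which borrows spread from all genes, included 0.

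Cacna2d1, the alpha2delta-1 subunit, varied far more between replicate numbers than between groups. Its log2 intensity was 8.41, 8.69 and 9.46 in control replicates 1, 2 and 3 and 8.48, 8.75 and 9.14 in the treated ones. Replicate 3 was the highest and replicate 1 the lowest in both groups. The SD among controls was 0.55, and 98.2% of genes had an SD no larger than that. The log2 difference was -0.06 ± 0.28 (SE), and the pairs gave 0.08, 0.06 and -0.33. The other row of Cacna2d1 gave a difference of -0.17, with 0.02, 0.02 and -0.53 in the pairs, so both rows were near 0 in pairs 1 and 2 and lower in pair 3. With the block the interval of the first row was -0.31 to 0.19, which included 0.

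The pore-forming subunits of presynaptic channels came next. Cacna1a, which encodes the P/Q-type channel that drives transmitter release at many central synapses, was at 9.91, 10.49 and 9.86 in the controls and at 9.38, 10.52 and 10.44 in the treated replicates 1, 2 and 3. Treated replicate 1 was the lowest of the 6 arrays and the groups overlapped. The mean difference, 0.02 ± 0.31 (SE), hid opposite directions, since the pairs gave -0.54, 0.03 and 0.58. The sign of the mean turned when the first control (-0.06), the third control (-0.09), the second treated (-0.18) or the third treated array (-0.14) was left out.

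Cacna1b, the N-type channel of nerve terminals, was at 7.41, 7.34 and 7.64 in the controls and at 7.19, 7.47 and 7.60 in the treated replicates. The groups overlapped, with a log2 difference of -0.04 ± 0.14 (SE). Cacna1e, the R-type channel, was at 7.70, 7.76 and 7.69 in the controls and at 7.70, 7.83 and 8.02 in the treated replicates. Its difference was 0.13 ± 0.11 (SE), carried mainly by pair 3, where it was 0.33 against 0.00 and 0.07 in pairs 1 and 2. The intervals, -0.36 to 0.28 for Cacna1b and -0.12 to 0.39 for Cacna1e, both included 0.

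The L-type channels, which couple activity to transcription in neurons and also serve muscle and endocrine cells, were represented by Cacna1c and Cacna1d. Cacna1c was at 8.45, 8.62 and 8.84 in the controls and at 8.14, 8.64 and 8.82 in the treated replicates 1, 2 and 3. It was highest in replicate 3 of both groups, and its difference was -0.10 ± 0.19 (SE), with -0.31, 0.02 and -0.02 in the pairs. Cacna1d was at 8.76, 9.09 and 8.42 in the controls and at 7.94, 8.91 and 8.98 in the treated replicates. Its pair differences of -0.82, -0.17 and 0.56 spanned 1.39, the widest of the 9 genes, around a mean of -0.15 ± 0.29 (SE). Treated replicate 1 was the lowest array for both L-type genes. Without 1,25D replicate 1 the mean difference turned to 0.09 for Cacna1c and to 0.19 for Cacna1d.

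Cacnb4, the beta subunit mutated in the ataxic lethargic mouse, was at 10.01, 9.88 and 10.33 in the controls and at 9.97, 9.87 and 10.17 in the treated replicates. The order of the replicate numbers was the same in both groups, and the difference was -0.07 ± 0.14 (SE). In the pairs it was -0.05, -0.01 and -0.16. With the block the interval was -0.26 to 0.11.

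As a group, the 8 measured genes other than Cacna2d2 had log2 differences between -0.15 and 0.13 and a median of -0.07, against 0.01 over all genes. Of these 8 genes 2 had a higher and 6 a lower mean in treated cultures, and their groups overlapped for all but Cacna2d3. That is 1 of the 8 genes, where 4.15% of all genes had groups that did not overlap in either direction. Cacna2d2 also had such groups, in the opposite direction, but it was chosen for its difference and is not counted. In pair 1 the 5 pore-forming genes had a median of -0.31, in pair 2 of 0.03 and in pair 3 of 0.33.

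**Figure D2:**
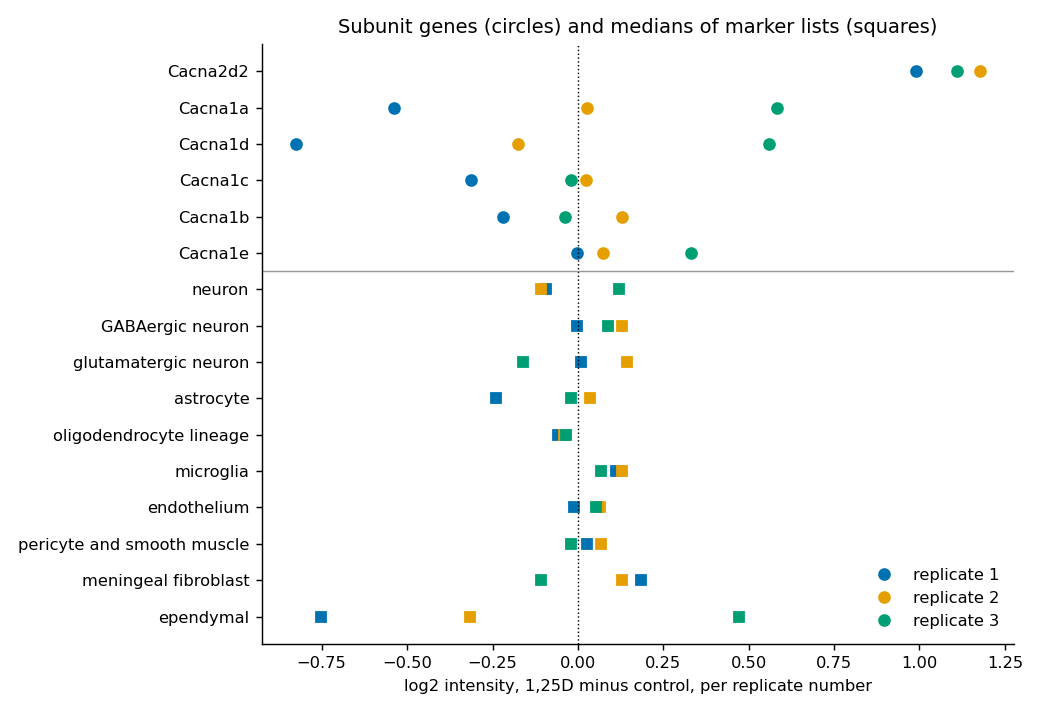
Log2 intensity, 1,25D minus control, per replicate number for Cacna2d2 and the 5 pore-forming genes (circles) and the median of each of 10 marker lists (squares). Cacna2d2 lies between 0.99 and 1.18 in all pairs, while Cacna1a, Cacna1d and the ependymal list run from negative in pair 1 to positive in pair 3, as the neuron list does by smaller amounts.

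The differences of Cacna1a and Cacna1d and the median of the list of ciliated ependymal cells were all negative in pair 1 and positive in pair 3. In pair 2 Cacna1a was at 0.03 and Cacna1d at -0.17. With 3 pairs and 10 lists this likeness is a description only. The 5 markers of the ependymal list (Foxj1, Dnah5, Tekt1, Ccdc39 and Rsph1) were lower by their median in pair 1 (-0.75) and pair 2 (-0.32) and higher in pair 3 (0.47). Their summed intensity was 3916, 3571 and 1924 in control replicates 1, 2 and 3 and 2507, 3037 and 2537 in the treated ones. All 5 had a lower mean in treated cultures. In either fit 0 of 5 passed, beside 0.0251% of all genes without the block and 0.0903% with it. Control means reached from 7.76 to 10.31, and that of Dnah5, the lowest, lay below the median of genes on each array. The neuron list had medians of -0.09, -0.11 and 0.12 in the pairs, also negative in pair 1 and positive in pair 3. The astrocyte list had -0.24, 0.04 and -0.02. Across the other marker lists no median in a pair lay further from 0 than 0.19. The part of these cell types in the values of Cacna2d2, Cacna1a and Cacna1d was not tested.

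Markers of the neurons in which alpha2delta-2 is prominent were also read. The 9 markers of GABAergic neurons had a median difference of 0.07 with medians of 0.00, 0.13 and 0.09 in the pairs, and a summed intensity of 1926 to 2452 in the controls and 1913 to 2629 in the treated arrays. Of the 6 markers of glutamatergic neurons 5 were measured, with a median of 0.03. Of the 12 neuron markers 5 had a higher mean, and 0 passed in either fit. Over all 10 marker lists 69 genes were measured and 0 passed in either fit, beside 0.0251% of all genes without the block and 0.0903% with it. For 4 of the 69 (5.80%, beside the 4.15% of all genes) the groups did not overlap. Col1a1, a collagen chain of fibroblasts, was higher at 0.42 ± 0.18 (SE), and Cx3cr1, a chemokine receptor of microglia, at 0.19 ± 0.09 (SE). Rbfox3, a nuclear protein of mature neurons, was lower at -0.34 ± 0.14 (SE), and Tagln, a protein of smooth muscle, at -0.23 ± 0.11 (SE). Pdgfrb, a receptor of pericytes, had a higher mean in each pair (0.47, 0.39 and 0.60), with groups that overlapped, a difference of 0.48 ± 0.20 (SE) and a limma adjusted p of 1.00 (0.23 once the block was added). The lists that hold these genes had median differences of -0.03 (neuron), 0.05 (microglia), 0.05 (pericyte and smooth muscle) and 0.06 (meningeal fibroblast). Of the 6 pericyte and smooth muscle markers 4 had a higher and 2 a lower mean, and of the 4 meningeal fibroblast markers 3 and 1. Summed intensity ranged from 8393 to 9438 in the controls and from 7040 to 8700 in the treated arrays for the 6 pericyte and smooth muscle markers. Most of this sum came from Acta2 and Tagln (control means of 12.51 and 11.10), the 2 with a lower mean. For the 4 meningeal fibroblast markers the summed intensity ranged from 996.7 to 1218 and from 1176 to 1553, and this sum includes Col1a1.

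The remaining subunit genes of the family were taken as a fixed list of 16, of which 15 were measured and Cacng6 was not analysed here. None of the 15 passed, with or without the block, at an adjusted p of 0.05, or at an unadjusted p under 0.05 (limma). Such an unadjusted p was found for 295 of all 19938 genes without the block and for 1152 with it. The adjusted threshold was passed by 0.0251% of all genes without the block and 0.0903% with it. Of the 15 genes 9 had a higher and 6 a lower mean, with differences between -0.10 and 0.16 and a median of 0.03. No gene of the 15 had groups that did not overlap. Cacng1, the gamma subunit known from skeletal muscle channels, had the smallest unadjusted p and a log2 difference of 0.16 ± 0.10 (SE), with 0.21, 0.15 and 0.12 in the pairs. Cacna1i, a low-voltage-activated T-type channel, was at 0.12 ± 0.10 (SE). Cacng8 and Cacng4, whose proteins accompany AMPA-type glutamate receptors, were at 0.10 ± 0.11 and 0.11 ± 0.15 (SE). Adjusted p-values were all 1.00 without the block, and the lowest with it was 0.88, for Cacng1. Cacng5 differed most between arrays, from 8.49 in control replicate 2 to 10.03 in control replicate 3.

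**Figure D3:**
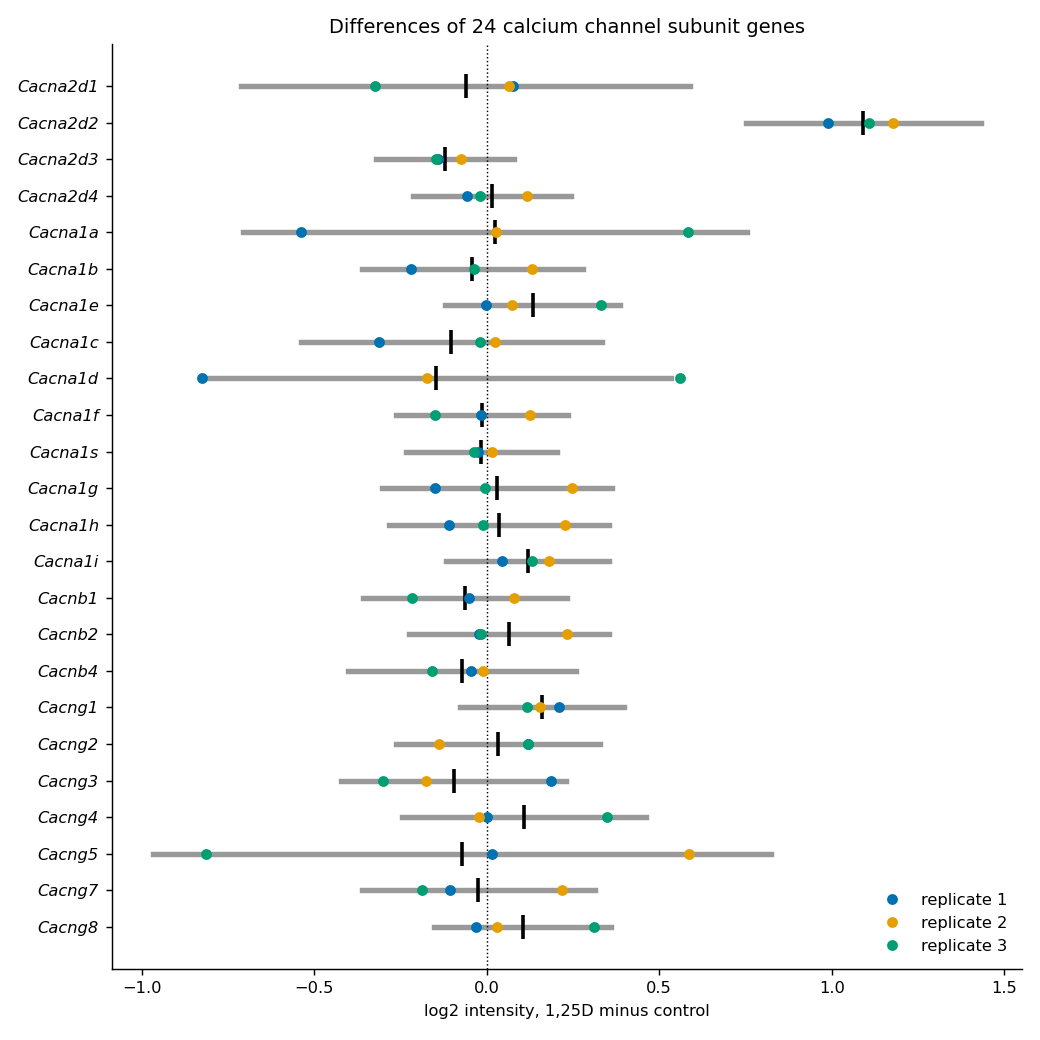
Log2 intensity, 1,25D minus control, for the 24 measured subunit genes, with the mean difference (black tick), its 95% interval from limma without the block (grey bar) and the difference at each replicate number (points). The interval of Cacna2d2 (0.75 to 1.43), a gene chosen for this difference, lies to the right of the mean difference of every other subunit gene. It overlaps the intervals of Cacna1a (up to 0.755) and Cacng5 (up to 0.825).

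Across all 24 measured subunit genes of 26 listed, Cacna2d2 had a mean difference of 1.09, the next highest was 0.16 (Cacng1), and the median was 0.00. Among all 19938 genes, 24 (0.12%) were at least 2-fold higher in the mean.

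**Figure D4:**
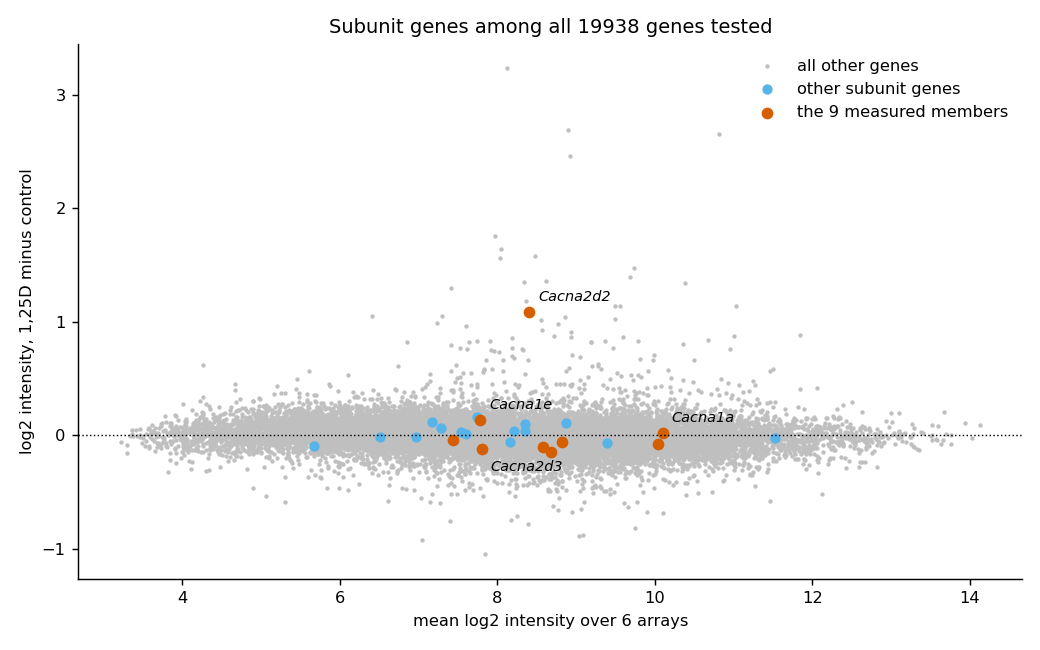
Log2 difference, 1,25D minus control, against the mean log2 intensity over 6 arrays for every gene tested (grey), the 9 measured members (orange) and 15 other subunit genes (blue). Cacna2d2 stands at 1.09, with 18 genes higher, and the other subunit genes lie in the band around 0.

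Proteins that bind or regulate the channels were read from 4 lists. Of the inhibitors and adaptors (Rem2, Gem, Rrad and the Stac genes) 6 of 7 were measured and 0 passed over all genes. Gem, a small GTPase that inhibits the channels through the beta subunit, was at 9.17, 8.99 and 9.07 in the controls and at 8.65, 8.87 and 8.69 in the treated replicates. Its difference was -0.34 ± 0.10 (SE), at a limma adjusted p of 1.00 (0.68 once the block was added). The groups did not overlap for 2 of the 6 genes, and for 4.15% of all genes. The 2 were Gem, which was lower, and Stac3, an adaptor known from skeletal muscle. Stac3 was higher at 0.11 ± 0.09 (SE), with 0.01 between its groups. Stac, an adaptor of L-type channels, was at 0.24 ± 0.13 (SE), with 0.51, 0.24 and -0.02 in the pairs.

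Of the calcium sensors 4 of 5 were measured and 0 passed, beside 0.0251% of all genes without the block and 0.0903% with it. Ncs1, neuronal calcium sensor 1, was at -0.15 ± 0.09 (SE). Its groups did not overlap, as for 4.15% of all genes. Cabp1, a calmodulin relative that binds several of the channels, was at 0.19 ± 0.12 (SE). Of the presynaptic partners 7 of 8 were measured and 0 passed. Rimbp2, which links release sites to calcium channels, was at -0.20 ± 0.15 and Rims2, a scaffold of the active zone, at -0.07 ± 0.09 (SE).

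Of the alpha2delta binding proteins 6 of 7 were measured and 0 passed, beside 0.0251% of all genes without the block and 0.0903% with it. Thbs2, a thrombospondin secreted by astrocytes, was at -0.44 ± 0.20 (SE), with -0.36, 0.03 and -0.99 in the pairs, and Lrp1, an endocytic receptor, at 0.06 ± 0.09 (SE). The median differences of the 4 lists were -0.02, 0.01, -0.03 and 0.05. For comparison, 9 of 11 voltage-gated sodium channel and leak channel genes were measured and 0 passed. Scn3b, an auxiliary sodium channel subunit, was at 8.96, 8.95 and 9.04 in the controls and at 8.39, 8.30 and 8.85 in the treated replicates. Its groups did not overlap, as for 4.15% of all genes. Its difference was -0.47 ± 0.15 (SE), at a limma adjusted p of 1.00 (0.49 once the block was added). Nalcn, the sodium leak channel, was at -0.33 ± 0.17 (SE).

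The genes whose profile over the 6 arrays was most like that of Cacna2d2 were sought by Pearson correlation among 899 genes whose highest and lowest arrays differed by at least 1 on the log2 scale. The 5 nearest were Wscd2 (r = 0.996), Cbs, which makes cystathionine (r = 0.983), Gdpd5, a glycerophosphodiester phosphodiesterase (r = 0.975), Klhl33 (r = 0.965) and Dio2, which activates thyroid hormone (r = 0.965). These coefficients describe 6 arrays that share treatment and replicate number, and each profile differed most between the groups. Wscd2 was at 7.75, 7.69 and 7.50 in the controls and at 8.35, 8.51 and 8.30 in the treated replicates. As for Cacna2d2, replicate 3 was the lowest in both groups. Its log2 difference was 0.74, and those of the other genes were 1.14 for Cbs, 0.83 for Gdpd5, 1.05 for Klhl33 and 0.85 for Dio2. For each of the 5 all treated arrays lay above all controls. They were picked for their likeness to a gene that was itself picked for this difference, so no test is given.

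**Figure D5:**
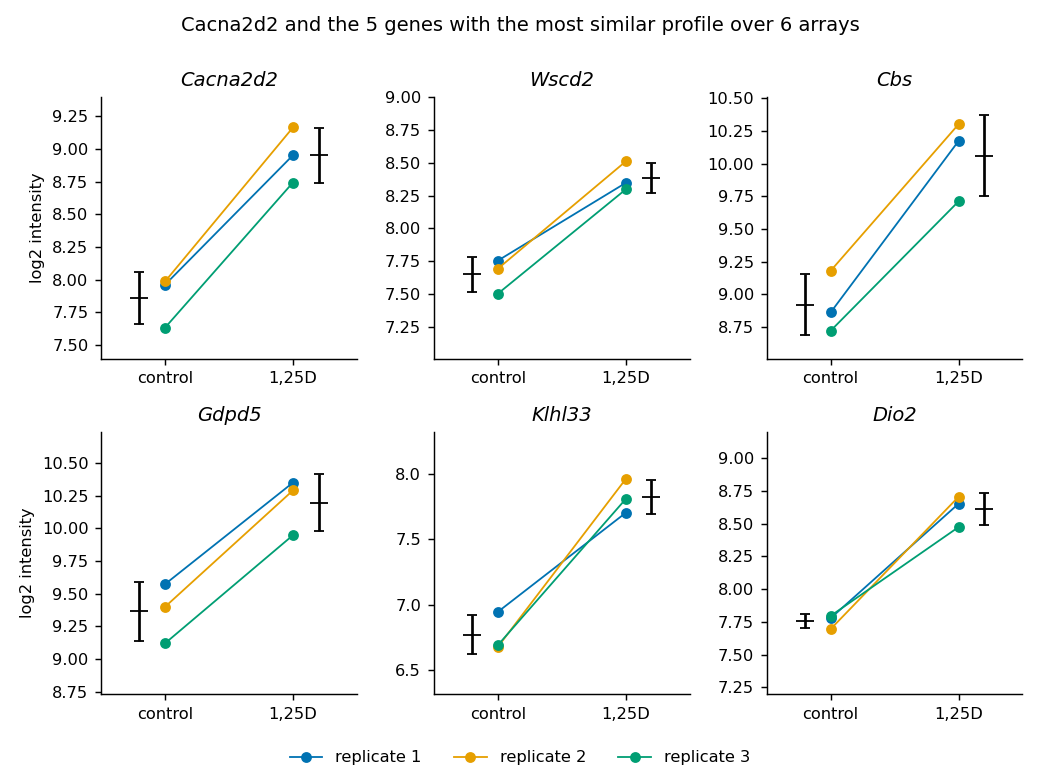
Log2 intensity by array of Cacna2d2 and the 5 genes with the most similar profile, with lines joining equal replicate numbers and black bars giving mean and SD (n = 3); every panel spans 2 log2 units. All lines run upward from control to 1,25D, and for Cacna2d2, Wscd2, Cbs and Gdpd5 replicate 3 is the lowest in both groups.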

How the data were processed

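Total RNA of 6 mouse cultures was hybridised to 1-colour Affymetrix arrays, 3 per group. The deposited values are linear intensities per transcript cluster, which the authors normalised by RMA (software Affymetrix Expression Console), as the submitters' processing notes name it; no version or filter was stated. RMA gives no detection call and compresses differences of dim genes, and the number of arrays limits the precision. Of 35556 rows 21789 carried 1 gene symbol, 1621 several and 12146 none in GEO's platform annotation. The log2 of each intensity was taken, the row with the highest mean was kept for each of 19938 genes, and 1,25D minus control was fitted with limma 3.58.1 in R 4.3.3 (lmFit, eBayes), with Benjamini-Hochberg adjustment over all genes, a threshold of 0.05, no filter and no block. The members, the gene lists and the alternatives were chosen with earlier results of these data known. Named are all members, the 4 other subunit genes and the 2 genes of each partner list with the smallest p, and the 5 genes most like Cacna2d2; the genes named for groups that do not overlap (Col1a1, Cx3cr1, Rbfox3, Tagln and Stac3), for their pair differences (Pdgfrb) or for their spread (Cacng5) were chosen after their values were seen. An exact permutation test of 3 arrays against 3 cannot go below 0.1.

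Deviations from the group means correlated across genes for equal replicate numbers (0.51, 0.65 and 0.46 for pairs 1, 2 and 3), which the data and no label give as a sign that the numbers mark pairs; positive values here force negative ones elsewhere. A blocked fit on the replicate number therefore stands beside the first. Other alternatives were quantile normalisation, median centring, the lowest 25% of genes left out, the mean of all rows of a gene, a variance trend, and each array or replicate number left out. Both fits were run on simulated data with 200 changed genes. The simulated replicate effects came from the blocked fit, so this run cannot choose between the fits, and nothing is read from it. Promoter sequences are RefSeq's for GRCm38.p6. The names were matched by symbol.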

Additional observations from a re-analysis of the deposited data

How the results depend on the processing

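The log2 difference of Cacna2d2 lay between 1.08 and 1.10 in the 5 alternatives of scaling, filter, rows and variance trend (limma adjusted p 0.084 to 0.14), and between 0.98 and 1.20 with 1 array left out (0.26 to 0.54), never past the threshold. With the replicate block it was 1.09 (adjusted p = 0.024), and with the block and 1 replicate number left out it lay between 1.05 and 1.14. It passed without replicate 1 (0.0023) and without replicate 3 (0.029), but not without replicate 2 (0.45), each from 2 pairs. Members called were 0 without the block, 1 with it, and 0 to 1 with the block and a number left out. Genes called were 5, against 18 with the replicate block, 3 after quantile normalisation, 0 to 2 with 1 array left out, and 40, 3 and 45 with the block and replicate number 1, 2 or 3 left out. Of the 15 other subunit genes 0 were called in any setting. The 8 members other than Cacna2d2 were called in 0 of 120 combinations of gene and setting (lowest limma adjusted p 0.28). The sign of the difference turned in 18 of these combinations. The blocked fit changed no other call among the genes named, apart from Cbs and Gdpd5 (adjusted p = 0.024 and 0.029). With 3 arrays per group, small differences cannot be resolved: over genes the SE had a median of 0.12, or 0.09 in the blocked fit.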
